A study of Mus musculus with 18 samples.

Results

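Livers of A10-FMT mice were compared with livers of mice kept on the high-fat diet (HFD) alone, 6 of the 18 livers sequenced, 3 in each group. All were from male ICR mice, an outbred stock, and were 10 weeks old by their labels. The HFD mice were given saline beside the diet. The A10-FMT mice were on the same diet and were dosed orally with the small-intestinal contents of donors on a regular diet that had received alginate oligosaccharide (AOS) at 10 mg/kg. The Con-FMT mice, 3 livers, were on the diet and received contents of donors given water in place of AOS, and stand here for the transplant itself. The contents of each donor group were pooled before use, so that each transplant is 1 pool, and the diet is shared by these 3 groups. The transplants were given once daily for a part of the time on the diet. The comparison asks which liver transcripts differ after the transplant of AOS-dosed donors on an unchanged diet. Nothing in the sources used here says at what clock hour the livers were taken.

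Many liver transcripts follow the circadian clock. The activator pair BMAL1 (gene Arntl) with CLOCK or NPAS2 binds E-box sequences and drives the period, cryptochrome and REV-ERB repressor genes together with output factors such as DBP, TEF and HLF. The repressors then shut the activators off, so that Arntl and Dbp peak at opposite times of the day. The liver clock takes its time from light and from feeding, and it sets the daily course of much of cholesterol, fatty acid, glycogen and detoxication metabolism. The liver is also a secretory organ, in which chaperones of the endoplasmic reticulum (ER) fold the proteins sent to the blood.

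Values are RPKM, the reads of a gene scaled to gene length and to the mapped reads of the library, as the authors deposited them. Differences are on the log2(RPKM + 1) scale, A10-FMT minus HFD unless said otherwise, and for genes near 0 they come out smaller than the change in RPKM. A gene was called changed at an adjusted p under 0.05 in limma. Of 10507 genes tested, 693 changed (6.6%), 275 higher in A10-FMT (2.62%) and 418 lower (3.98%). The median difference of all genes tested was -0.03, with 43.2% of them higher and 56.8% lower whether called or not, and 24.5% had an unadjusted p under 0.05. With the median of each library set equal, 603 genes were higher and 467 lower, so that the balance of directions depends on the scaling. The changes were mostly small, with a median size of 0.52 for the genes that rose and 0.48 for those that fell, and 37 and 54 genes reached a size of 1. The 3 A10-FMT livers lay wholly above or below the 3 HFD livers for 2456 genes (23.4%).

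**Figure D1:**
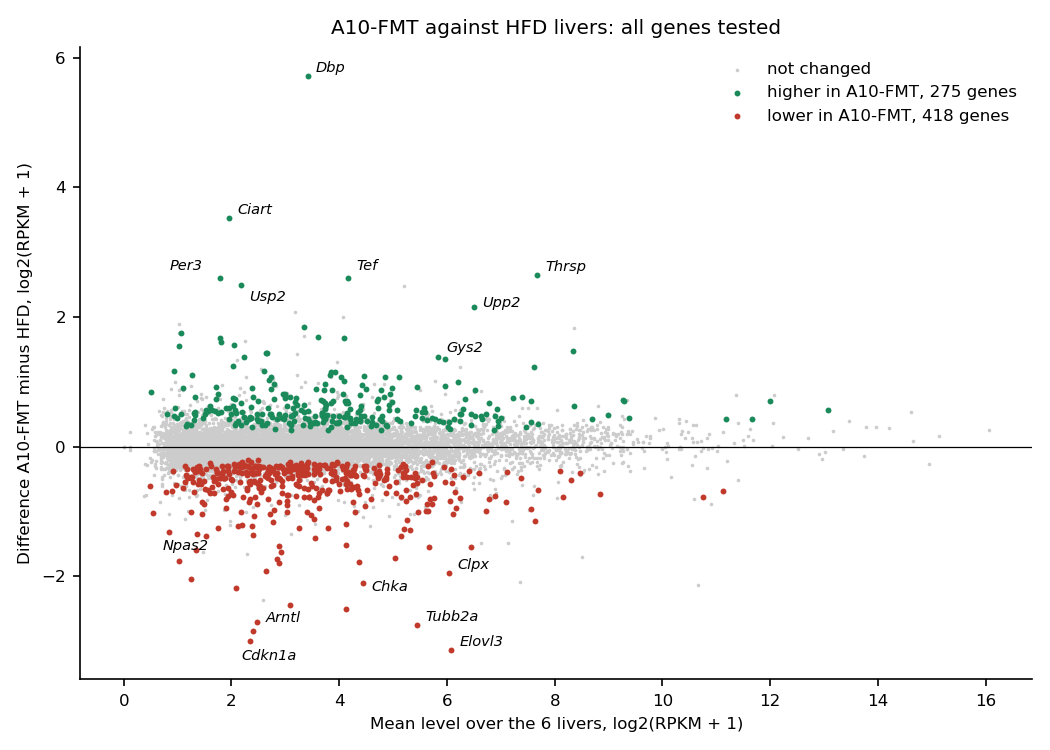
Each point is 1 of the 10507 genes tested. The x axis is its mean level over the 3 HFD and 3 A10-FMT livers and the y axis its difference A10-FMT minus HFD, both on the log2(RPKM + 1) scale. Coloured points are the 275 genes higher and 418 lower in A10-FMT at an adjusted p under 0.05. Dbp at 5.72 and Ciart at 3.52 lie highest, and Elovl3 at -3.14 and Cdkn1a at -3.0 lie lowest.

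The third A10-FMT liver stood nearer to the HFD livers than the other two. Over genes, the SD of its log2 difference from an HFD liver was 0.320, 0.339 and 0.346, against 0.394 to 0.443 for A10-FMT replicates 1 and 2. Between livers of 1 group it was 0.271 to 0.343 in HFD and 0.287 to 0.318 in A10-FMT. Without A10-FMT replicate 3, 1218 genes changed, and without replicates 1 or 2 the number was 289 and 271. Leaving out HFD replicates 1, 2 or 3 gave 1076, 323 and 334 genes. In all 6 of these fits 195 of the 693 genes passed the threshold, 81 higher and 114 lower. Where a gene named below lost its call in any of them, the highest adjusted p of the 6 fits is given as its leave-one-out adjusted p. The spread was estimated over all 18 livers, and the third Con and AOS livers each lay between the other two of their group for 97.3% and 94.4% of the genes in which those differed by at least 1, against 58% to 73.7% in the other 4 groups. Without these livers 395 genes changed, all of them among the 693.

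The 2 largest rises of the whole comparison were clock genes. Of 14 clock repressors and outputs, 13 rose in A10-FMT and 0 fell (2.62% and 3.98% of all genes), with a median difference of 1.76. Of 7 genes of the opposite phase, that of Arntl, 5 fell and 0 rose, with a median of -1.16. The members of both lists were chosen with earlier results of these data known, so that the counts describe them and are no test. The HFD and A10-FMT livers did not overlap for 13 of the 14 and for 5 of the 7, beside 23.4% of all genes tested.
Stretches of promoter are shown for clock genes on either side of this split, because the clock's own binding sequences stand in them. They were read from RefSeq promoters (build GRCm38.p6, the mm10 assembly that the submitters' processing notes name), 250 bases before the RefSeq start of transcription. Each is given 5′ to 3′ on the strand of its gene. The capitals mark the E-box CACGTG, searched on both strands, and in Per3 the D-box TTATGTAA, to which DBP, TEF, HLF and their antagonist NFIL3 bind.
Per1 (chr11:69098756-69098815, plus strand, E-box 166 bases before the start): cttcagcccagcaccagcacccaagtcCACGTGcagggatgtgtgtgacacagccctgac
Ciart (chr3:95882312-95882371, minus strand, the first of 3 E-boxes, 116 bases before the start): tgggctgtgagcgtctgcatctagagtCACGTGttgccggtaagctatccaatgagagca
Cry1 (chr10:85185082-85185141, minus strand, E-box 60 bases before the start): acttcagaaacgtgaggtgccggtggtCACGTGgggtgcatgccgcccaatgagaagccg
Per3 (chr4:151044837-151044896, minus strand, the first of 2 D-boxes, 205 bases before the start): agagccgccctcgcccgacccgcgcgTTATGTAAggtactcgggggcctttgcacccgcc
An E-box stood in 4 of the 11 repressor and output promoters in the table (36.4%) and in 1 of 6 promoters of the opposite phase, that of Cry1 (16.7%), against 6.05% of 27025 mouse promoters of the same length. The 4 were Ciart, Bhlhe41, Per1 and Tef. They rose, as did 13 of the 14 genes of their list whether or not an E-box was found, and Cry1 fell. The D-box stood in 1 of 11 and 0 of 6, and in 0.862% of all promoters. The ROR element TAGGTCA, also searched, stood in 0 of 11 and in 1 of 6, that of Nfil3, and in 2.27% of all promoters. By the gene bounds of GENCODE M21 the Per1 stretch lies inside Per1 (chr11:69095217-69109960), so that its RefSeq start is internal there. The stretch of Tef lies inside Tef as well. Of the 60 bases shown or read around a match, annotated exons hold 60 for Tef, 34 for Nfil3 and 18 for Bhlhe41. A match describes the letters only and is not a measured binding site.

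Among the outputs, Dbp (chr7:45705088-45710203, plus strand, GENCODE M21) changed most. Dbp held 0.56, 0.27 and 0.59 RPKM in the HFD livers and 126.9, 70.84 and 49.17 in the A10-FMT livers, a difference of 5.72 (standard error 0.51, adjusted p = 1.23e-05). In the Con-FMT livers Dbp lay between these, at 16.54, 3.24 and 22.57. Exons of Dbp overlap those of Sphk2 in the annotation, and Sphk2 differed by 0.03 (adjusted p = 0.945). Tef, a related output factor, was 8.68, 5.42 and 5.12 RPKM in HFD and 54.01, 46.76 and 31.5 in A10-FMT, a difference of 2.6 (standard error 0.26, adjusted p = 2.75e-05). Hlf, the remaining member of this small family, rose least of the 3 family members, by 0.75 (adjusted p = 0.00156). Usp2, a deubiquitinase with daily rhythm in liver, went from 0.69, 0.61 and 1.55 to 11, 14.38 and 5.77 (2.5, adjusted p = 1.54e-05), and Wee1, a kinase that holds back entry into mitosis, from 0.97, 1.01 and 0.83 to 5.22, 6.86 and 3.87 (1.68, adjusted p = 3.12e-05).

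The repressors rose with the outputs. Ciart (chr3:95878503-95882251, minus strand), which encodes a repressor of BMAL1 and CLOCK, had the smallest p of all genes, with 0.05, 0.2 and 0.2 RPKM in HFD and 14.63, 13.66 and 8.99 in A10-FMT (3.52, standard error 0.20, adjusted p = 1.02e-07). Per3 was 0.44, 0.38 and 0.38 in HFD and 10.14, 8.86 and 4.59 in A10-FMT, a difference of 2.6 (adjusted p = 1.23e-05). In both genes every A10-FMT liver lay far above every HFD liver. The largest changes were named only among genes whose livers did not overlap, so that this is no further support. Nr1d2, which encodes REV-ERBβ, was 6.32, 4.99 and 2.55 in HFD and 22.67, 16.71 and 16.22 in A10-FMT (1.85, adjusted p = 0.000183). Per1 rose by 1.57 (adjusted p = 0.0243, leave-one-out adjusted p = 0.0924), Per2 by 1.45 (adjusted p = 0.0112, leave-one-out adjusted p = 0.0664), Cry2 by 0.78 (adjusted p = 0.00922, leave-one-out adjusted p = 0.053), Bhlhe40 by 1.08 (adjusted p = 0.0249, leave-one-out adjusted p = 0.09) and Bhlhe41 by 0.85 (adjusted p = 0.015, leave-one-out adjusted p = 0.0587). The libraries whose omission cost a call were A10-FMT replicates 1 and 2 and HFD replicates 1 and 2 for Per1, A10-FMT replicate 2 and HFD replicate 2 for Per2, and A10-FMT replicate 1 for Cry2. For Bhlhe40 they were A10-FMT replicates 1 and 2 and HFD replicates 2 and 3, and for Bhlhe41 A10-FMT replicate 1 and HFD replicates 2 and 3. Nr1d1, which encodes REV-ERBα, was the 1 repressor not called (2.00, adjusted p = 0.0598), with 21.72, 7.35 and 2.12 RPKM in HFD and 62.5, 15.3 and 35.88 in A10-FMT, so that its groups overlapped.

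Of the 7 genes of the opposite phase, 6 were lower, 5 of them past the threshold. Arntl (chr7:113207465-113314126, plus strand) was 12.11, 14.64 and 13.21 RPKM in HFD and 0.79, 0.69 and 2.41 in A10-FMT, and fell by 2.71 (standard error 0.22, adjusted p = 6.57e-06). Npas2 was 2.64, 2.65 and 2.95 in HFD and close to nothing in A10-FMT, at 0.02, 0.03 and 0.29 (-1.76, adjusted p = 9.13e-06). Clock, whose daily swing in liver is known to be smaller, fell by 1.07 (adjusted p = 0.000278), from 6.04, 6.8 and 7.32 to 2.4, 2.15 and 3.65. Nfil3, which encodes the repressor of D-boxes, was 26.76, 28.88 and 29.75 in HFD and 8.76, 9.59 and 9.6 in A10-FMT (-1.51, adjusted p = 2.75e-05). Cry1 fell by 1.16 (adjusted p = 0.0265, leave-one-out adjusted p = 0.122), a call lost without A10-FMT replicate 1 or without HFD replicates 2 or 3. Rora, a nuclear receptor that switches Arntl on, did not pass the test, with a difference of -0.28 (adjusted p = 0.199).

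The other groups are given only as levels. In the livers of mice given AOS itself on the HFD (HFD+AOS), Dbp was 111.84, 88.9 and 97.76 RPKM and Arntl 1.18, 1.23 and 1.32. In Con livers, on the regular diet with saline, Dbp was 0.66, 0.58 and 0.68 and Arntl 10.11, 12.9 and 12.15, at the level of HFD. On the regular diet, livers of the AOS group, dosed with AOS itself, held 3.41, 0.36 and 1.78 of Dbp and 11.16, 12.72 and 11.81 of Arntl. Of the 693 changed genes, 4.76%, 3.46% and 6.64% lay within the range of the HFD livers in HFD+AOS replicates 1, 2 and 3. That share was 27.1% to 45.9% in Con-FMT livers, 33.2% to 43.9% in Con livers and 31.7% to 43.3% in AOS livers. The 693 genes were called with these same HFD livers. The share does not say on which side of the HFD range the other values lay. The transplant and the clock hour of tissue collection cannot be told apart, since no source used here gives that hour for any group.

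**Figure D2:**
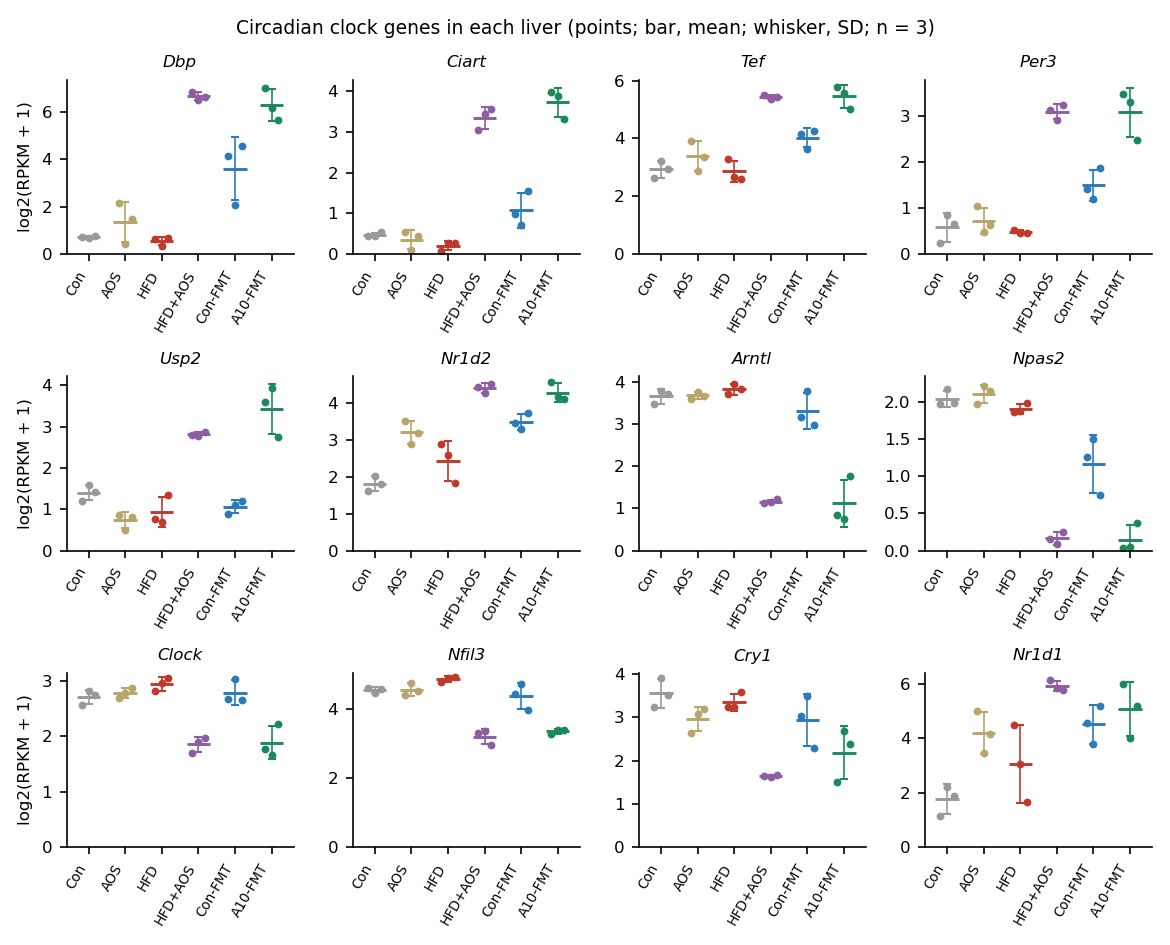
Level of 12 clock genes in each of the 18 livers, on the log2(RPKM + 1) scale (y axis), by group (x axis). Points are single livers, bars the mean of 3 and whiskers the SD. In the first 6 panels the A10-FMT and HFD+AOS livers stand above the HFD livers, and in the panels of Arntl, Npas2, Clock, Nfil3 and Cry1 they stand below them. The Con-FMT mean lies between the HFD and A10-FMT means in all 12 panels, and Nr1d1 overlaps between HFD and A10-FMT.

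The 2 transplants, compared with each other, differed in 177 genes (1.68%), 48 higher in A10-FMT (0.457%) and 129 lower (1.23%), and 45 of these passed the threshold with each liver of the groups left out in turn. Among the 14 repressors and outputs 6 were higher in A10-FMT than in Con-FMT and 0 lower, with a median of 1.08, and among the 7 of the opposite phase 4 were lower and 0 higher, with a median of -0.91. The median over all genes tested was -0.03 in this comparison too. Ciart was 0.96, 0.63 and 1.9 RPKM in Con-FMT and differed from A10-FMT by 2.65 (adjusted p = 6.82e-06). Arntl was 8.02, 12.97 and 6.94 in Con-FMT and differed by -2.20 (adjusted p = 9.37e-05). For Dbp the difference was 2.68 (adjusted p = 0.0132), a call lost without A10-FMT replicate 1 or 2, with an adjusted p of up to 0.076. Nr1d2, at 9.87, 8.81 and 12.12 in Con-FMT, differed by 0.79 and was not called (adjusted p = 0.0887).

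Among genes of fatty acid synthesis, 1 rise and 1 fall were among the 15 largest in their direction. Thrsp, which encodes the lipogenic factor Spot 14, was 52.02, 95.77 and 106.46 RPKM in HFD and 355.09, 634.72 and 587.46 in A10-FMT (2.64, standard error 0.49, adjusted p = 0.00487). Elovl3 (chr19:46131897-46135694, plus strand), an elongase of very long fatty acids, fell most of all genes, from 250.25, 174.28 and 183.36 to 20.96, 16.83 and 29.07 (-3.14, standard error 0.29, adjusted p = 1.54e-05). That the groups did not overlap was a condition for counting both genes among the largest changes. The Con-FMT livers lay nearer to HFD than to A10-FMT, at 114.52, 33.54 and 121.12 for Thrsp and 129.89, 114.18 and 220.82 for Elovl3. Of these, Elovl3 in replicates 1 and 2 and Thrsp in replicate 2 were below every HFD liver. In replicates 1 and 3 Thrsp was above every HFD liver. HFD+AOS livers, on the diet with AOS itself, held 425.32, 268.8 and 695.17 of Thrsp and 25.24, 26.48 and 45.27 of Elovl3. Against Con-FMT, Elovl3 differed by -2.72 (adjusted p = 0.000152) and Thrsp by 2.7 (adjusted p = 0.00979), the latter lost without A10-FMT replicate 2 or Con-FMT replicate 2, with an adjusted p of up to 0.0605. Exons of Elovl3 overlap those of Pitx3, which fell as well, by 1.02 (adjusted p = 0.000201). Of 21 genes of fatty acid synthesis, desaturation and elongation, 2 rose, 2 fell and 17 did not pass the test, with a median of -0.16. Over all genes tested 2.62% rose and 3.98% fell. Srebf1, the insulin-responsive regulator of fatty acid synthesis, rose by 0.94 (adjusted p = 0.0119, leave-one-out adjusted p = 0.0562 without A10-FMT replicate 2). Insig2, which holds SREBP proteins in the ER, fell by 1.54 (adjusted p = 0.0106, leave-one-out adjusted p = 0.061, lost without A10-FMT replicate 1 or 2), with 153.82, 153.86 and 136.8 RPKM in HFD and 35.74, 30.65 and 115.18 in A10-FMT. Fasn, the fatty acid synthase, differed by -0.26 and Scd1, a desaturase, by -0.13, and neither was called.

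**Figure D3:**
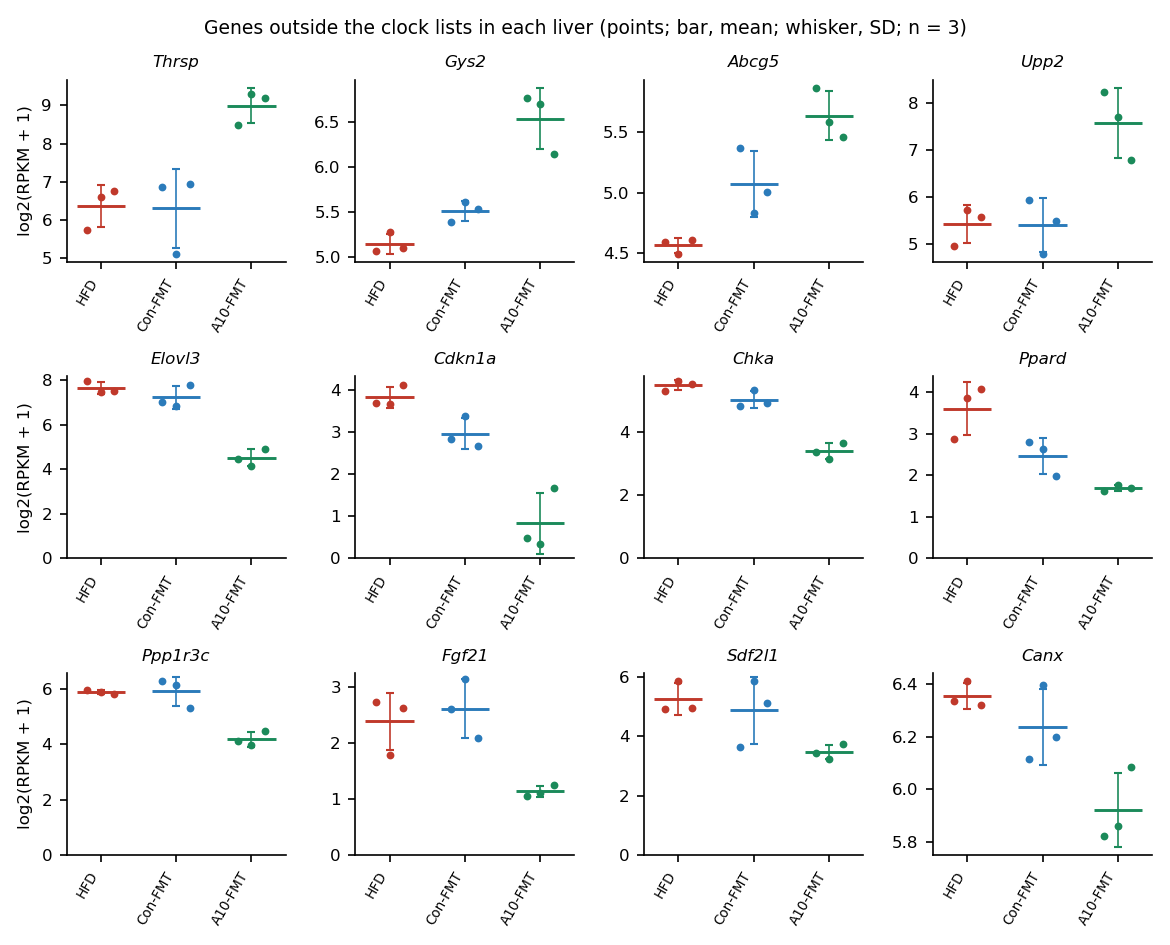
Level of 12 genes outside the clock lists in each HFD, Con-FMT and A10-FMT liver (x axis), on the log2(RPKM + 1) scale (y axis, which does not start at 0 in the panels of Thrsp, Gys2, Abcg5, Upp2 and Canx). Points are single livers, bars the mean of 3 and whiskers the SD. The first 4 genes are higher in every A10-FMT liver than in any HFD liver, and the other 8 are lower. For the genes named as largest changes, such as Thrsp and Elovl3, this was a condition of the choice.

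Of 13 tested sterol transport genes 3 rose and 0 fell (2.62% and 3.98% of all genes), with a median of 0.23. In 8 of them the HFD and A10-FMT livers did not overlap, beside 23.4% of all genes tested. Abcg5 and Abcg8 together encode the transporter that secretes sterols into bile. Abcg5 was 23.15, 21.59 and 23.46 RPKM in HFD and 57.0, 46.92 and 43.01 in A10-FMT (1.07, standard error 0.13, adjusted p = 0.000236), and Abcg8 rose by 0.89 (adjusted p = 0.00168). The 2 genes lie head to head on chromosome 17 with overlapping exons in the annotation, so that their reads may not be fully separate. Npc1, which carries cholesterol out of lysosomes, rose by 0.47 (adjusted p = 0.00809), from 23.0, 21.99 and 22.89 to 31.74, 30.71 and 32.47. Npc1 also shares exon sequence with a neighbour, Rmc1. Of these, Abcg5 differed between A10-FMT and Con-FMT as well (0.57, adjusted p = 0.0426), a call lost without A10-FMT replicates 1 or 2 or Con-FMT replicates 2 or 3 (adjusted p up to 0.223).

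In cholesterol synthesis, by contrast, the third A10-FMT liver parted from the other two. All 25 genes tested were lower in the mean of A10-FMT than in that of HFD, beside 56.8% of all genes. In limma 16 of them had an unadjusted p under 0.05 (24.5% of all genes), and the median was -0.66. Only 1 had livers that did not overlap (23.4% of all genes). Against Con-FMT the median was -0.48. The mean level of the 25 genes lay 1.09 and 0.97 below the HFD mean in A10-FMT replicates 1 and 2 and 0.08 above it in replicate 3, and the HFD livers were at -0.34, 0.25 and 0.09. Hmgcs1, the first enzyme committed to this pathway, showed it most, with 31.72, 30.91 and 195.92 RPKM in A10-FMT and 123.48, 233.95 and 152.76 in HFD, and it was not called (adjusted p = 0.0839). At the adjusted threshold 2 fell (3.98% of all genes did), Srebf2, the regulator of the pathway (-0.64, adjusted p = 0.0129, leave-one-out adjusted p = 0.0708), and Idi1 (-1.27, adjusted p = 0.0392, leave-one-out adjusted p = 0.164). Both calls were lost without A10-FMT replicate 1 or 2, and that of Idi1 also without HFD replicate 2 or 3.

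**Figure D4:**
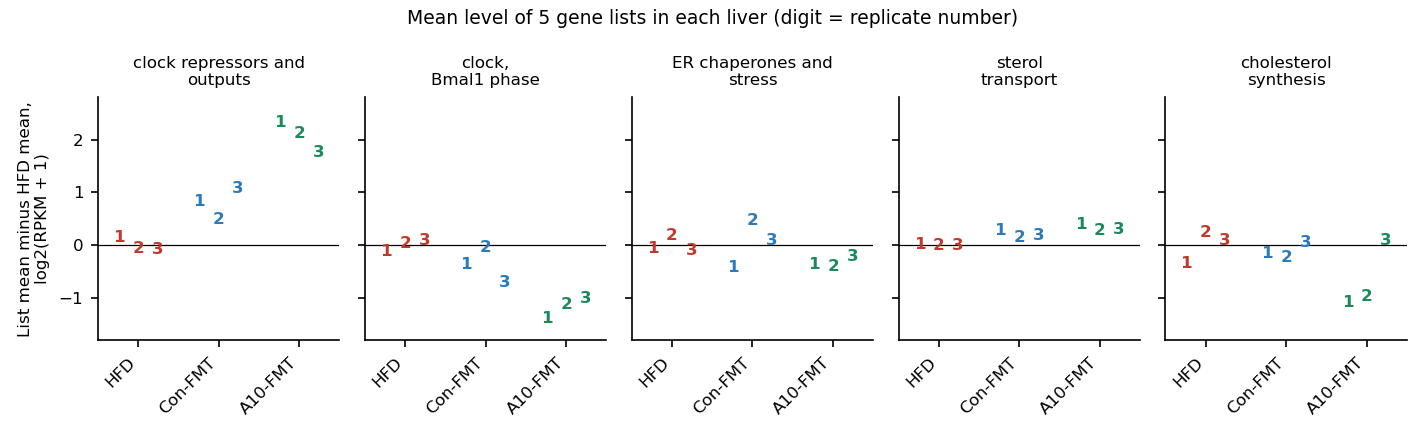
Mean level of the tested genes of 5 lists in each HFD, Con-FMT and A10-FMT liver, as the difference from the mean of the 3 HFD livers on the log2(RPKM + 1) scale (y axis). Each digit is the replicate number of 1 liver. The clock lists separate A10-FMT from HFD in every liver, the ER list does so by less, and in cholesterol synthesis A10-FMT replicate 3 lies among the HFD livers while replicates 1 and 2 lie about 1 below them. The lists were chosen with earlier results of these data known.

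Glycogen genes changed in opposite directions. Gys2, the glycogen synthase of liver, was 32.5, 37.71 and 33.41 RPKM in HFD and 107.6, 102.38 and 69.86 in A10-FMT (1.39, standard error 0.15, adjusted p = 8.07e-05). Ppp1r3c, a subunit that brings protein phosphatase 1 to glycogen, was 61.39, 58.52 and 54.56 in HFD and 16.11, 14.56 and 21.36 in A10-FMT (-1.71, standard error 0.21, adjusted p = 0.000223). Both genes also differed from Con-FMT, by 1.02 (adjusted p = 0.00247) and -1.73 (adjusted p = 0.000515). Ugp2, which makes the UDP-glucose used for glycogen, rose by 0.48 (adjusted p = 0.0133, leave-one-out adjusted p = 0.069 without A10-FMT replicate 1). The other 27 of 30 genes of glucose and glycogen metabolism did not pass the test, while 6.6% of all genes changed, and the list's median was 0.14. Among 20 genes of insulin signalling 0 passed it in limma (9 at an unadjusted p under 0.05, beside 24.5% of all genes), the smallest p being that of Pik3ca (-0.20, adjusted p = 0.0578).

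Of the proteins the liver releases as hormones, Fgf21 and Igfbp1 fell. Fgf21, a fasting and stress hormone, was 5.64, 2.46 and 5.15 RPKM in HFD and 1.08, 1.15 and 1.37 in A10-FMT (-1.25, standard error 0.25, adjusted p = 0.00809), and the Con-FMT livers stayed high at 5.11, 7.82 and 3.22 (-1.47 against Con-FMT, adjusted p = 0.00551). Igfbp1, an insulin-suppressed binding protein of IGF, fell by 2.51 (adjusted p = 0.0233), but its HFD livers were spread widely at 11.18, 42.18 and 138.83 against 10.16, 2.86 and 8.17. Its leave-one-out adjusted p was 0.118, and the call was lost without A10-FMT replicate 2 or HFD replicates 2 or 3. Lect2, a secreted chemotactic factor, rose by 0.47 (adjusted p = 0.0329, leave-one-out adjusted p = 0.148, lost without A10-FMT replicates 1 or 2 or HFD replicates 1 or 3). The other 16 of 19 hepatokine genes tested did not pass, while 6.6% of all genes changed, with a list median of 0.17. Downstream of the growth hormone receptor, Stat5b fell by 0.66 (adjusted p = 0.000396), from 15.64, 14.51 and 15.39 to 9.22, 8.57 and 9.88, and its twin Stat5a by 0.55 (adjusted p = 0.0282, leave-one-out adjusted p = 0.125, lost without A10-FMT replicates 1 or 2 or HFD replicates 1 or 3).

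Chaperones of the ER were among the genes that fell. Of 30 genes of ER stress and folding, 8 fell and 1 rose, beside 3.98% and 2.62% of all genes. In the list 18 had an unadjusted p under 0.05 (24.5% of all genes did), and the median was -0.38. The 8 were Canx and Calr, the lectin chaperones, Hsp90b1, Pdia3 and Pdia4, which fold client proteins and join their disulphides, the co-chaperones Dnajb11 and Sdf2l1, and Sel1l of the degradation complex. Canx was 79.75, 84.09 and 78.87 RPKM in HFD and 55.64, 57.06 and 66.78 in A10-FMT (-0.43, standard error 0.08, adjusted p = 0.0046). Calr was 538.01, 766.66 and 498.74 in HFD and 331.6, 336.02 and 400.6 in A10-FMT (-0.73, adjusted p = 0.0206). Sdf2l1 fell by 1.78 (adjusted p = 0.0115), from 29.22, 57.97 and 30.43 to 9.88, 8.49 and 12.38. The A10-FMT livers lay below the HFD livers in all 3 genes, which for Sdf2l1 was a condition for naming it among the largest falls. Canx kept its call in all 6 leave-one-out fits. The other 7 did not, with a leave-one-out adjusted p of 0.061 for Sdf2l1, 0.0953 for Calr, 0.107 for Pdia3, 0.105 for Hsp90b1, 0.13 for Dnajb11, 0.141 for Pdia4 and 0.172 for Sel1l, and A10-FMT replicate 2 and HFD replicate 2 were each among the libraries whose omission cost every one of these 7 calls. Hspa5, the main chaperone of the ER, was not called (-0.79, adjusted p = 0.0702). Herpud1, which serves the disposal of misfolded proteins, rose by 0.77 (adjusted p = 0.0103), from 124.17, 124.14 and 133.81 to 221.28, 223.19 and 208.17. The stress transcription factors Xbp1 (-0.08), Atf4 (-0.23), Atf6 (0.02) and Ddit3 (-0.18) did not pass the test, with an adjusted p from 0.269 to 0.937.

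Promoter stretches of 3 of the chaperone genes that fell are shown because they hold a sequence known from ER stress genes. The capitals mark the ER stress element, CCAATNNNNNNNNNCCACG on either strand, in the 250 bases before the start (RefSeq, GRCm38.p6, on the strand of the gene).
Canx (chr11:50325779-50325838, minus strand, 145 bases before the start): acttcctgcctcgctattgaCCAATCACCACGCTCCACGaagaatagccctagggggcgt
Hsp90b1 (chr10:86705617-86705676, minus strand, the first of 2, 212 bases before the start): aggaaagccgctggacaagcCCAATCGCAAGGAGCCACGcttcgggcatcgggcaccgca
Calr (chr8:84847054-84847113, minus strand, reverse orientation, 162 bases before the start): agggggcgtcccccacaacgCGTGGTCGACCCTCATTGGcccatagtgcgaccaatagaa
It stood in 9 of 26 promoters of the list that the table held (34.6%) and in 0.122% of all 27025. The other 6 with it were Hspa5, Derl3, Pdia6, Dnajc3, Creld2 and Syvn1, of which 0 were called. In Hspa5 all 60 bases around the match lie in annotated exons. Relative to the HFD mean, the 30 genes averaged -0.37, -0.41 and -0.21 in A10-FMT, below each HFD liver at -0.07, 0.18 and -0.1. The Con-FMT livers spread across both, at -0.42, 0.46 and 0.09, and Sel1l was the 1 gene of the list called between A10-FMT and Con-FMT (-0.58, adjusted p = 0.0309, up to 0.145 with 1 liver left out). Of 26 heat shock chaperones 0 passed the test in limma (3 at an unadjusted p under 0.05). Of the 26, 24 were lower, beside 56.8% of all genes, with a median of -0.22.

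Chka and Cdkn1a fell as well. Chka (chr19:3851773-3894369, plus strand), which encodes the choline kinase that opens phosphatidylcholine synthesis, had the second smallest p, with 38.93, 48.05 and 45.34 RPKM in HFD and 9.3, 7.91 and 11.65 in A10-FMT (-2.10, standard error 0.14, adjusted p = 4.68e-07). Cdkn1a (chr17:29090976-29100727, plus strand), the p21 inhibitor of the cell cycle, was 11.99, 11.81 and 16.47 in HFD and 0.41, 0.27 and 2.18 in A10-FMT (-3.0, standard error 0.29, adjusted p = 1.95e-05). Every A10-FMT liver lay below every HFD liver in both genes, which was a condition for naming them among the largest falls. Both differed from Con-FMT in limma, by -1.64 (adjusted p = 1.61e-05) for Chka and -2.13 (adjusted p = 0.00134) for Cdkn1a. Among 17 p53 and stress genes Ddit4 fell too (-0.65, adjusted p = 0.045, leave-one-out adjusted p = 0.175, kept only without A10-FMT replicate 3), while Gadd45a rose by 0.75 (adjusted p = 0.00786), from 2.92, 1.53 and 2.12 to 5.31, 4.12 and 3.6. Of 11 cell cycle genes tested, Mcm7, a subunit of the replicative helicase, fell by 0.64 (adjusted p = 0.00874) and Tk1, a thymidine kinase, rose by 1.08 (adjusted p = 0.0273, leave-one-out adjusted p = 0.136, lost without A10-FMT replicates 1 or 2 or HFD replicates 1 or 3). Exons of both overlap those of neighbouring genes.

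Among the other large changes, Upp2, a uridine phosphorylase of liver, was 30.19, 52.33 and 46.92 RPKM in HFD and 301.36, 208.4 and 109.01 in A10-FMT (2.15, adjusted p = 0.00156). Coq10b, which serves coenzyme Q function, rose by 1.67 (adjusted p = 0.000278) and Bmf, a pro-apoptotic BH3-only protein, by 1.61 (adjusted p = 0.00251). Cnmd rose by 1.55 (adjusted p = 0.00768). On the other side, Tubb2a, a β-tubulin, fell by 2.75 (adjusted p = 0.00268), from 68.15, 153.06 and 132.96 to 7.74, 10.01 and 47.63. Clpx, the unfoldase of a mitochondrial protease, fell by 1.95 (adjusted p = 3.92e-05), from 153.11, 118.01 and 117.38 to 30.78, 22.18 and 50.4, and the nuclear receptor Ppard by 1.91 (adjusted p = 0.00035), from 6.31, 13.62 and 15.76 to 2.05, 2.42 and 2.24. These genes kept their calls against HFD in all 6 leave-one-out fits. Upp2, Clpx, Coq10b and Tubb2a were also called against Con-FMT, the last 2 not in every fit with 1 liver left out (adjusted p up to 0.159 and 0.219). Bmf (1.0, adjusted p = 0.0794), Cnmd (1.1, adjusted p = 0.0844) and Ppard (-0.78, adjusted p = 0.137) were not called against Con-FMT. In Con-FMT livers Ppard was 5.97, 5.17 and 2.95, below every HFD liver. Retnla, known from alternatively activated macrophages, was 0.28, 0.14 and 0.0 RPKM in HFD and 7.87, 1.81 and 1.25 in A10-FMT. It reached 1 RPKM in the 3 A10-FMT libraries and in 0 of the other 15, so that it passed the filter through the group where it is high, and its levels are a description with no test.

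Fatty acid oxidation gave calls in both directions, 3 higher and 4 lower of 53 genes, with a median of 0.13. Over all genes tested 2.62% were called higher and 3.98% lower. Crot, which exports chain-shortened acids from peroxisomes as carnitine esters, fell by 1.15 (adjusted p = 0.00123), from 319.2, 324.78 and 251.12 RPKM to 116.14, 107.51 and 189.45. Pdk4, which blocks pyruvate dehydrogenase when fat is burned, fell by 1.34 (adjusted p = 0.00293), from 2.18, 3.64 and 3.65 to 0.38, 0.27 and 1.43. The 2 Cyp4a hydroxylases called in this list, Cyp4a14 and Cyp4a10, are neighbours of 1 gene family, and whether they share reads was not tested. Their differences were -2.84 for Cyp4a14 (adjusted p = 0.0384, leave-one-out adjusted p = 0.144) and -2.44 for Cyp4a10 (adjusted p = 0.0474, leave-one-out adjusted p = 0.171), and of the leave-one-out fits only that without A10-FMT replicate 3 kept either call. Over all alternatives the differences stayed between -3.9 and -2.57 for Cyp4a14 and between -2.82 and -1.97 for Cyp4a10. Ppara itself, the receptor that governs the list, rose by 0.59 (adjusted p = 0.0223, leave-one-out adjusted p = 0.104, lost without A10-FMT replicates 1 or 2 or HFD replicates 2 or 3), and Eci2 rose by 0.43 (adjusted p = 0.0121, leave-one-out adjusted p = 0.0684, lost when HFD replicate 3 or A10-FMT replicate 2 was left out).

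Of 26 triglyceride and droplet genes 3 rose and 0 fell (2.62% and 3.98% of all genes), with a median of -0.03, as over all genes. Dgat2, which adds the last acyl chain of triglyceride, was 165.43, 124.8 and 150.74 RPKM in HFD and 234.42, 274.74 and 215.21 in A10-FMT (0.71, adjusted p = 0.00284), and it alone of the 3 kept its call with each liver left out. Lpin2, a phosphatidate phosphatase, rose by 0.54 (adjusted p = 0.0139, leave-one-out adjusted p = 0.0606 without A10-FMT replicate 1), and Gpat4, an acyltransferase at the head of the pathway, by 0.33 (adjusted p = 0.00972, leave-one-out adjusted p = 0.0547 without the same liver). Lpin2 and Gpat4 also exceeded Con-FMT, by 0.71 for Lpin2 (adjusted p = 0.00536) and 0.30 for Gpat4 (adjusted p = 0.0364), the latter past the threshold only without A10-FMT replicate 3 among the fits with 1 liver left out (adjusted p up to 0.17). Of 24 apolipoprotein genes, Apoc1 rose by 0.57 (adjusted p = 0.0241, leave-one-out adjusted p = 0.108) and Apoc4 by 0.43 (adjusted p = 0.0364, leave-one-out adjusted p = 0.148), while Apob, the body of VLDL, fell by 0.40 (adjusted p = 0.0196, leave-one-out adjusted p = 0.0923), from 403.55, 404.24 and 417.41 RPKM to 293.33, 292.44 and 342.5. Each of these 3 lost its call without A10-FMT replicates 1 or 2 or without HFD replicates 2 or 3.

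The study stained the proteins FXR, the bile acid receptor (gene Nr1h4), RBP4 and DHRS9 in liver. It reports less FXR protein after A10-FMT and Con-FMT than in HFD, and more RBP4 and DHRS9 protein after A10-FMT. The values here are of RNA, and for Nr1h4 the direction is opposite to that of the stained protein. Nr1h4 was 63.43, 73.37 and 58.57 RPKM in HFD and 88.71, 96.25 and 72.39 in A10-FMT (0.39, standard error 0.10, adjusted p = 0.0377), and the lowest A10-FMT liver lay within the HFD range. It was the 1 gene called of 29 in bile acid metabolism, whose median was -0.02, and its call was lost without A10-FMT replicates 1 or 2 or HFD replicates 1 or 3 (leave-one-out adjusted p = 0.173). Against Con-FMT it differed by 0.49 (adjusted p = 0.0285), a call that held only without A10-FMT replicate 3 (adjusted p up to 0.152). Rbp4, the carrier of retinol in blood, rose by 0.43 (adjusted p = 0.0261), from 3041.73, 2614.64 and 2747.51 to 3735.71, 4134.46 and 3459.38 (leave-one-out adjusted p = 0.126, lost without A10-FMT replicates 1 or 2 or HFD replicates 2 or 3). The Con-FMT livers, at 3327.3, 3668.52 and 3201.97 of Rbp4, also lay above every HFD liver. Between A10-FMT and Con-FMT Rbp4 differed by 0.15 and was not called (adjusted p = 0.517). Dhrs9 was near 0 and below the filter for testing, with 0.02, 0.11 and 0.13 in HFD and 0.09, 0.02 and 0.04 in A10-FMT. Of 33 retinoid genes 3 rose and 2 fell, beside 2.62% and 3.98% of all genes, with a median of 0.01. Stra6l, a retinol-binding protein receptor, fell by 0.81 (adjusted p = 0.00273), from 69.97, 70.57 and 62.09 to 40.98, 27.69 and 48.53. Cyp26a1, which breaks down retinoic acid, fell by 1.8 (adjusted p = 0.0291), but it was as low in Con-FMT at 2.67, 1.7 and 1.45 as in A10-FMT at 2.8, 1.19 and 6.53, and its call held only without A10-FMT replicate 3 (leave-one-out adjusted p = 0.145).

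Among 42 cytochrome P450 and receptor genes 3 rose and 1 fell, with a median of 0.09. Cyp2e1, which oxidises ethanol and ketones, rose by 0.70 (adjusted p = 0.00786), from 3364.31, 3169.12 and 3043.77 RPKM to 5354.27, 5937.15 and 4343.09. Por, the electron donor of all microsomal P450 enzymes, rose by 1.35 (adjusted p = 0.0134, leave-one-out adjusted p = 0.0747, lost without A10-FMT replicate 1 or 2), and the xenobiotic receptor CAR, gene Nr1i3, by 1.00 (adjusted p = 0.0319, leave-one-out adjusted p = 0.15, lost without A10-FMT replicates 1 or 2 or HFD replicates 2 or 3). Cyp3a44 fell by 2.04 (adjusted p = 0.0432), but HFD replicate 1 was low at 0.32 beside 7.98 and 8.37 in the other HFD livers, and the call held only without that liver (leave-one-out adjusted p = 0.175). Con-FMT livers were low in Cyp3a44 as well, at 0.55, 0.6 and 0.0, and A10-FMT differed from them by -0.21 (adjusted p = 0.891). In amino acid metabolism 3 of 45 genes rose and 0 fell, with a median of 0.07, while 6.6% of all genes tested changed.

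Other lists held few calls or none, beside 6.6% of all genes tested. Of 29 acute phase genes 2 fell, the fibrinogen chains Fga (-0.77, adjusted p = 0.00991, leave-one-out adjusted p = 0.061) and Fgg (-0.69, adjusted p = 0.0131, leave-one-out adjusted p = 0.0764), both lost without A10-FMT replicate 2 or HFD replicate 2. In the mitochondria, 2 of 79 ribosomal protein genes rose, Mrpl14 by 0.50 (adjusted p = 0.00428) and Mrps35 by 0.40 (adjusted p = 0.00652). Of 78 respiratory chain genes 68 were higher, beside 43.2% of all genes, but 0 passed the test in limma, with a median of 0.12. At an unadjusted p under 0.05 there were 11 of the 78, a smaller share than the 24.5% of all genes. Of 47 interferon-stimulated genes 42 were lower, beside 56.8% of all genes, and 0 passed in limma (8 at an unadjusted p under 0.05). Their median was -0.23, and it was 0.06 against Con-FMT. For 79 cytosolic ribosomal protein genes the calls were 0 (1 at an unadjusted p under 0.05), and for 18 iron genes also 0 (5 at an unadjusted p under 0.05). Of 38 proteasome genes 2 fell, Psmd2 by 0.30 (adjusted p = 0.022) and Psmd11 by 0.45 (adjusted p = 0.0228), and neither call held in every leave-one-out fit (adjusted p up to 0.109 and 0.118). The call of Psmd2 was lost when A10-FMT replicates 1 or 2 or HFD replicate 2 was left out, and that of Psmd11 also when HFD replicate 3 was. Rbm3, a cold-inducible RNA-binding protein, rose by 0.70 as 1 of 4 tested cold-induced genes (adjusted p = 0.0176), from 10.49, 13.23 and 15.51 to 21.23, 25.6 and 18.43, and its call was lost when A10-FMT replicates 1 or 2 or HFD replicate 2 was left out (adjusted p up to 0.0945). Conjugation enzymes and complement and coagulation factors, 42 tested genes each, held 1 gene that rose and 0 that fell. In the lists of NRF2 targets (26 tested) and of glucocorticoid targets (19 tested) 1 gene rose and 1 fell, and of 7 genes of MHC class II 0 were called in limma (0 at an unadjusted p under 0.05).

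**Figure D5:**
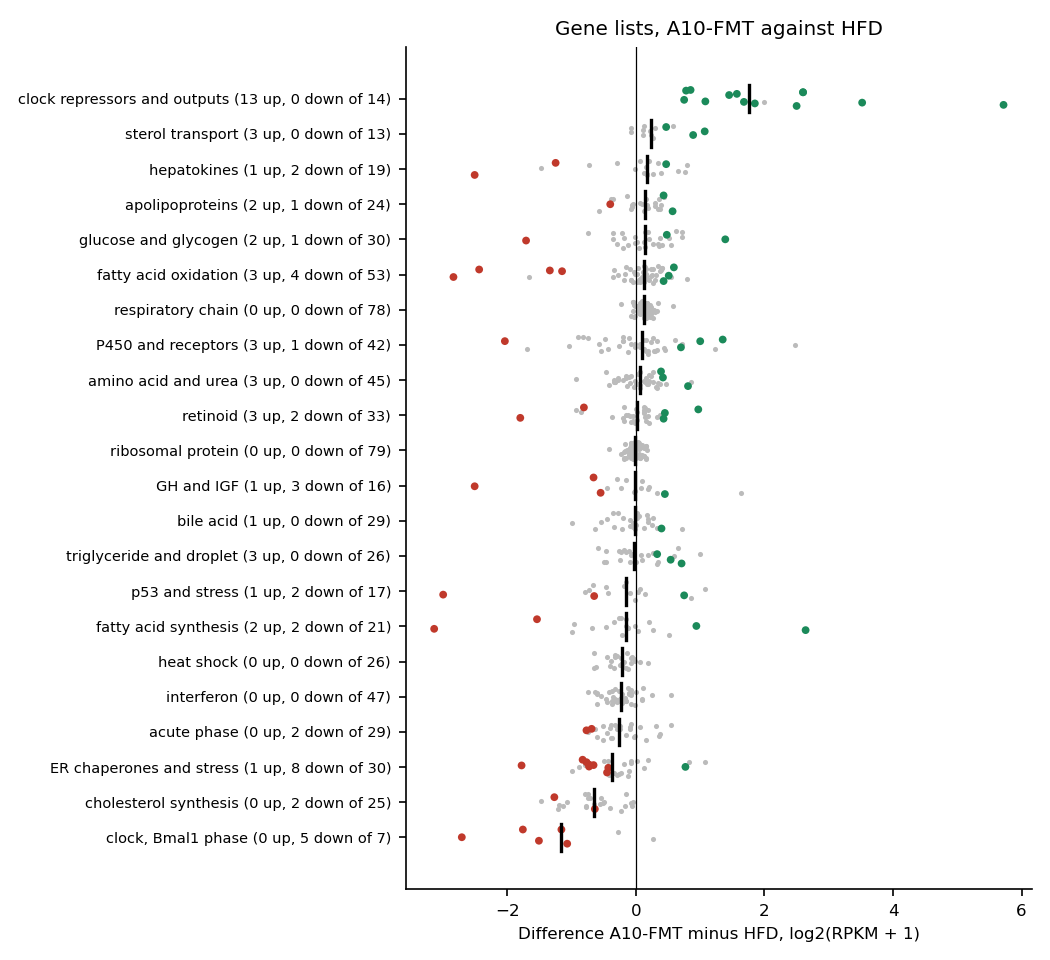
Differences A10-FMT minus HFD of the tested genes of 22 lists, on the log2(RPKM + 1) scale (x axis), with 1 row a list, ordered by its median. Grey points were not called, green points rose and red points fell at an adjusted p under 0.05, and black bars are medians, from 1.76 for clock repressors and outputs to -1.16 for the clock genes of the Bmal1 phase. Labels give the calls in each direction and the genes tested. The lists were chosen with earlier results of these data known.

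In whole liver, fewer cells of a type and less RNA per cell cannot be told apart. Hepatocyte markers, 12 of 12 of them tested, summed to 69892 to 82113 RPKM in HFD and 68733 to 73298 in A10-FMT, and 1 of the 12 was called, Apob. The summed macrophage markers were 140 to 290 in HFD and 153 to 206 in A10-FMT, and 0 of 20 tested were called (0 at an unadjusted p under 0.05). These sums, given beside Retnla, overlapped. The stellate cell markers summed to 204 to 224 and 223 to 239 and the endothelial markers to 79.7 to 90.7 and 78.0 to 93.1, with 0 of 22 and 0 of 13 called in limma (6 and 0 at an unadjusted p under 0.05). Sox9, a marker of bile duct cells, fell by 1.03 (adjusted p = 0.000887), from 3.56, 2.65 and 2.53 to 0.91, 1.06 and 0.76, as 1 of 4 tested of that list, whose sum was 29.1 to 35.1 in HFD and 29.3 to 34.2 in A10-FMT. Jchain, the joining chain of secreted antibodies, was 0.25, 0.28 and 0.3 in HFD and 3.71, 2.12 and 0.58 in A10-FMT. It reached 1 RPKM in 2 A10-FMT and 2 other libraries, so that it too passed the filter with the help of the group where it is high and is given with no test. The lymphocyte markers summed to 5.93 to 6.62 in HFD and 5.22 to 15.3 in A10-FMT. The erythroid markers, which come with blood in the tissue, summed to 1273 to 3344 and 1643 to 4077. All 7 tested were higher in the mean of A10-FMT, beside 43.2% of all genes, with a median of 0.50. In limma 0 were called (1 at an unadjusted p under 0.05). Both neutrophil markers tested, of 9 in the table, were higher as well, with a median of 0.49 and 0 called in limma (0 at an unadjusted p under 0.05), and that list summed to 2.6 to 3.85 in HFD and 2.33 to 9.71 in A10-FMT. The part of these cell types in the results above was not tested.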

How the data were processed

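Livers of the 6 groups were grouped by the labels (3 each) and the columns of the table matched to them by abbreviation and replicate number. The labels do not say that same-group libraries are separate mice, so the p values measure the spread between these libraries. The authors deposited RPKM values, scaled to gene length and mapped reads after SOAPaligner had placed reads on reference genes, for 19057 lines of gene symbols (17109 with any value). The header names no unit, which was taken from the methods of the study. The submitters' processing notes name Bowtie 0.12.2 and mm10. The annotation and strandedness are not given in the sources used here. The settings in the study's methods report all hits of a read, so near-identical genes (Cyp, Ugt) may share reads. Absolute depth is unknown. The libraries of the 2 groups summed to 715841 to 777378 RPKM, with 14698 to 14982 genes above 0.

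The filter kept 10507 genes that reached 1 RPKM in 3 or more of the 18 libraries. Group means of log2(RPKM + 1), a pseudocount of 1, were fitted over all 18 libraries in limma 3.58.1 (R 4.3.3; lmFit, eBayes with trend), with two-sided p values adjusted over these 10507 by the Benjamini-Hochberg method. DEGseq, which the study's methods name, needs read numbers and was not run. The fit was tested on simulated data. Lists were written by hand and are described by counts and medians, without a set test. The members and lists were chosen with earlier results of these data known. Named genes are the 15 largest changes in each direction with livers that do not overlap, up to 3 changed members of each list by p (or the 1 with the smallest p), Nr1h4, Rbp4 and Dhrs9, and the 5 largest changes in each direction against Con-FMT. Other members of the clock and ER lists, and Hmgcs1, Fasn, Scd1, Srebf1, Ppara, Stat5a, Sphk2, Pitx3 and Rmc1, fall outside this rule and were chosen after their values were seen, as were all genes of the closing observations. Some genes that the rule names are not reported here. Positions are from GENCODE M21 (GRCm38), matched by symbol for 108 of 108 genes, and promoters from RefSeq. Alternatives were another scaling, a pseudocount of 0.1, no filter, a filter of 5 RPKM, only the groups compared, Con and AOS without replicate 3, a replicate block, no trend, the cut-offs of the study's methods and each library left out. Python 3.11.15 with pandas 2.3.3 and matplotlib 3.10.9 made the tables and figures.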

Additional observations from a re-analysis of the deposited data

How the results depend on the processing

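Between A10-FMT and HFD, the 693 changed genes (275 higher, 418 lower) became 1070 (603 higher) with library medians set equal, 78 (32 higher, 46 lower) with only these groups in the fit, 395 (170 higher, 225 lower) without the third Con and AOS libraries, and 39 (11 higher, 28 lower) at an adjusted p of at most 0.001 and an absolute log2 of at least 1. Between A10-FMT and Con-FMT, the 177 genes (48 higher, 129 lower) became 100 (30 higher, 70 lower) without the filter, 4 (1 higher, 3 lower) with only these groups, 82 (21 higher, 61 lower) without the third Con and AOS libraries and 10 (3 higher, 7 lower) at the stricter cut-offs, and 108 were higher with medians set equal. With each library left out in turn, the first comparison gave 271 to 1218 genes, 119 to 463 higher and 149 to 755 lower, and the second 51 to 564, 14 to 174 higher and 37 to 390 lower. The cause was not tested, other than that fits of fewer livers hold fewer degrees of freedom. Replicate numbers did not pair the livers (correlations of same-numbered deviations -0.0722 to 0.0843), and with a replicate block 704 and 168 genes changed. All 693 genes kept their direction in every alternative that tested them, and 0 of the 98 named genes reversed. Only the other scaling, the pseudocount of 0.1 and the fits with a library left out could change a direction. The remaining alternatives use the same group means as the main fit, so that direction was fixed in them. Of these 98, 57 lost their call with only the 2 groups fitted, 25 without the third Con and AOS libraries and 21 without the filter, while 94, 95 and 93 stayed on their side with median scaling, a pseudocount of 0.1 and the block. Without read numbers, the precision of genes near 1 RPKM cannot be given.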

Other observations

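Genes outside every list also separated the A10-FMT livers from the HFD livers and passed the threshold with each liver left out, and those named here were chosen after their values were seen. Nampt, the rate-limiting enzyme of NAD salvage, was 7.18, 9.43 and 9.75 RPKM in HFD, 8.9, 9.61 and 7.96 in Con-FMT and 19.4, 26.46 and 15.59 in A10-FMT (1.11 against HFD, limma adjusted p = 0.00103, and 1.1 against Con-FMT, adjusted p = 0.00247). Klf13, a zinc finger transcription factor, rose by 1.07 (limma adjusted p = 0.000559), from 3.27, 3.68 and 3.86 to 9.64, 9.39 and 7.2. Uox, which breaks down uric acid in mice, rose by 0.72 (limma adjusted p = 0.00809) but did not pass the test against Con-FMT (0.37, adjusted p = 0.22).

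Among the genes that fell, Avpr1a, the vasopressin receptor of hepatocytes, was 15.34, 23.29 and 23.68 RPKM in HFD and 8.23, 6.56 and 9.24 in A10-FMT (-1.26, limma adjusted p = 0.000394). Slc16a1, a carrier of lactate and ketone bodies, fell by 0.95 (limma adjusted p = 0.000277), from 13.4, 18.74 and 16.56 to 7.2, 6.89 and 9.74. Dnmt3b, a DNA methyltransferase, was low in all livers and fell by 1.0 (limma adjusted p = 0.000129), from 2.87, 1.94 and 2.41 to 0.61, 0.77 and 0.69. Spon2, a secreted matrix protein, was 13.88, 12.59 and 10.19 in HFD, 12.12, 13.37 and 11 in Con-FMT and 3.2, 1.66 and 4.55 in A10-FMT, a difference of -1.73 from either group.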
